A study of Mus musculus with 12 samples.

Results

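The gelsolin family holds proteins that cut, cap and bundle actin filaments. Its members were taken as every gene whose name in the scanner files was Scin, Gsn, Capg, Vil1, Avil, Svil or Flii, which gave 7 genes of 30119 on the array and 11 probes of 39429. The family was selected on the Scin signal, chosen by its opposite differences in ko against wt and in RUNX1-ERt2 against ERt2, so Scin values are given throughout as a description with no test. Of the 7 genes, 5 genes with 9 probes passed the filter on dim probes, which asks for a signal well above background in all arrays of some group, and Vil1 and Avil did not.

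RNA came from mouse GMP, or granulocyte-monocyte progenitors, from which neutrophils and monocytes arise in the marrow, and was measured on 12 one-colour arrays. The RUNX1-ERt2 group (n = 2) and the ERt2 group (n = 2) were GFP+ GMP from bone marrow of Runx1fl/fl-Tg(vav-Cre) mice given 150 mg/kg 5-fluorouracil 3 days earlier. That marrow was infected with a MIG retrovirus that carried GFP and either RUNX1 fused to the tamoxifen-responsive ERt2 domain or ERt2 alone, and was transplanted into lethally irradiated mice. Recipients received tamoxifen after 6 weeks, at 49.5 µg/g on 3 days, and were sampled 24 h later; the labels name tamoxifen for all 4 samples, although the protocol speaks of part of the mice. The ko group (n = 4) was native GMP of Runx1fl/fl-Tg(vav-Cre) mice, with no transplantation, and the wt group (n = 4) was native GMP of Runx1+/+-Tg(vav-Cre) mice. All groups thus carried vav-Cre, which is active across blood cells, and all except wt carried the floxed Runx1 alleles. Age was not given, and neither were separate animals behind the replicates, so p-values reflect only how these samples varied, and that variation may be technical.

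Gelsolin and scinderin, the product of Scin, sever filaments in a calcium-dependent way and stay on the new barbed end as a cap, which frees actin for rapid turnover. Gelsolin, Capg and their relatives are known in neutrophils, macrophages and platelets, where shape change, migration and secretion depend on such turnover. RUNX1 is a DNA-binding transcription factor needed for blood cell formation, and the comparisons ask which genes differ when it is deleted and when it is supplied again.

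All 9 markers of GMP and promyelocytes, such as Mpo and Elane, were well above background on every array. Median processed signal was 40.2 to 54.4 on the 4 transplant arrays and 61.4 to 92.5 on the 8 native arrays. RUNX1-ERt2 lay on slide 4 and ERt2 on slide 3, so group and slide cannot be told apart there, while the native groups each had replicates 1 and 2 on slide 1 and replicates 3 and 4 on slide 2. Both Runx1 probes were brighter in ko than in wt, at levels of 2.44 to 3.05 in ko against 0.86 to 1.22 in wt on 1 probe, and 2.87 to 4.20 in ko against 1.18 to 2.23 in wt on the other. Both were dimmer in RUNX1-ERt2 than in ERt2, at 1.56 to 1.76 in RUNX1-ERt2 against 2.60 to 2.61 in ERt2 on the first, and 1.92 to 2.33 in RUNX1-ERt2 against 3.14 to 3.29 in ERt2 on the other. The labels say neither which part of Runx1 is removed nor whether these probes read the retroviral RUNX1, so they check neither the deletion nor the supply, and the groups are named as labelled. In sorted cells, fewer cells of a type and less RNA per cell cannot be told apart.

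Levels below are log2 processed signal minus the 75th percentile of the array, so a level of 0 equals that percentile, and they are compared between groups for 1 probe at a time. Scin, the severing and capping member known from secretory cells, is read by a probe on chromosome 12 (mm9, 40786517 to 40786576, minus strand). Its level was −1.85 and 0.29 in RUNX1-ERt2, and −5.72 and −4.66 in ERt2. It was −4.81, −5.28, −4.67 and −4.22 in ko, against 0.41, 0.72, 1.26 and 1.42 in wt. The wt arrays were highest, 1 RUNX1-ERt2 array lay just below the lowest wt array and the other well below it, and the ERt2 and ko arrays overlapped at the bottom. The probe was well above background on every array except 1 of the 2 ERt2 arrays.

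Scin was lower in ko than in wt by 5.70 on the log2 scale (SE 0.42), a 52.0-fold difference, with means of −4.75 ± 0.44 in ko and 0.95 ± 0.47 in wt (SD, n = 4 each). The ko minus wt difference was −5.61 on slide 1 and −5.79 on slide 2, and −4.40 with normexp background correction of the raw spots. In RUNX1-ERt2 it was higher than in ERt2 by 4.41 (SE 0.59), or 21.3-fold, with means of −0.78 ± 1.51 in RUNX1-ERt2 and −5.19 ± 0.75 in ERt2 (SD, n = 2 each). With normexp correction the RUNX1-ERt2 minus ERt2 difference was 2.71, and leaving out 1 array at a time gave 3.34 to 5.48. RUNX1-ERt2 minus wt was −1.73 (SE 0.51), but −0.66 without RUNX1-ERt2 replicate 1 and −2.80 without replicate 2. ERt2 minus ko was −0.44 (SE 0.51), −0.98 without ERt2 replicate 2, and of the other sign without ERt2 replicate 1 (0.09) and with normexp correction (0.17).

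**Figure D1:**
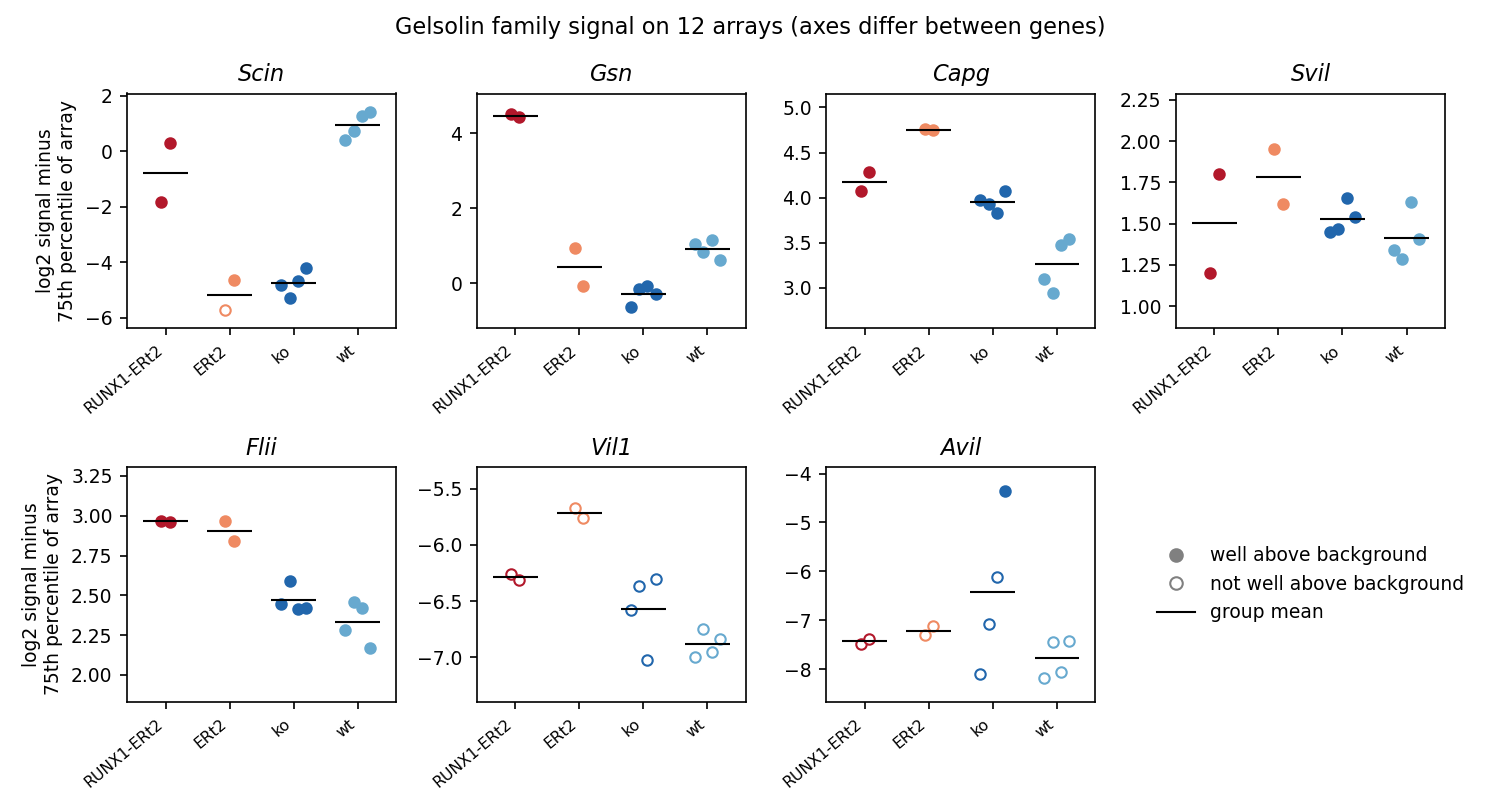
Level of each gelsolin family gene (log2 processed signal minus the 75th percentile of the array) on the 12 arrays, by group, with a line at the group mean and open circles where the probe was not well above background. Scin separates wt and RUNX1-ERt2 from ERt2 and ko, and Gsn on both RUNX1-ERt2 arrays (4.50 and 4.43) lies above all other arrays.

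Gsn encodes gelsolin, the family's best-known severing and capping protein, and is read by 2 overlapping probes on chromosome 2 (mm9, plus strand, 35163342 to 35163401 and 35163358 to 35163417). On the brighter probe its level was 4.50 and 4.43 in RUNX1-ERt2, against 0.93 and −0.07 in ERt2. It was −0.65, −0.15, −0.09 and −0.29 in ko, against 1.05, 0.82, 1.14 and 0.63 in wt. Both RUNX1-ERt2 arrays stood above every other array, and the ko arrays lay below the wt arrays without overlap.

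Gsn was 16.4-fold higher in RUNX1-ERt2 than in ERt2 (log2 difference 4.04 ± 0.32 SE, limma adjusted p = 4.7e-05), and the second probe gave 4.33. In native cells it fell in ko relative to wt by 1.20 on the log2 scale (SE 0.22, adjusted p = 0.0056), and the difference was −1.33 on slide 1 and −1.07 on slide 2. On slide 2 alone, with 2 arrays a group, it did not pass (adjusted p = 0.15). The second probe gave −1.16 (adjusted p = 0.0093). Gsn thus moved the same way as Scin in both comparisons, which share no arrays.

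Gsn in RUNX1-ERt2 stood above the wt level, with a difference of 3.55 ± 0.27 (adjusted p = 1.3e-05), and the second probe gave 3.24. ERt2 exceeded ko by 0.72 ± 0.27 (adjusted p = 0.048) on the brighter probe, but the second probe gave 0.06 (adjusted p = 0.87). That call rested on ERt2 replicate 1, without which the difference was 0.22 (adjusted p = 0.49), and it was also lost when any 1 ko array was left out (adjusted p 0.053 to 0.11). With these, it was lost in 8 of 16 alternatives.

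The size of the Gsn difference was compared between the 2 settings by a contrast chosen after the values were seen, RUNX1-ERt2 minus ERt2 less wt minus ko. Gsn was 4.04 in the transplanted pair and 1.20 in the native pair, and the excess of 2.83 ± 0.39 passed the test (adjusted p = 0.0015), as did 18.2% of all genes tested. For Capg the excess was 0.11 (adjusted p = 0.76), for Svil −0.17 (adjusted p = 0.67) and for Flii 0.19 (adjusted p = 0.40). For Scin the same quantity was −1.29 (SE 0.73), from 4.41 in the transplanted and 5.70 in the native pair, and it was −0.22 without RUNX1-ERt2 replicate 1 and −2.36 without replicate 2. Transplantation, tamoxifen, vector and slide all differ between the 2 pairs and cannot be told apart here.

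**Figure D2:**
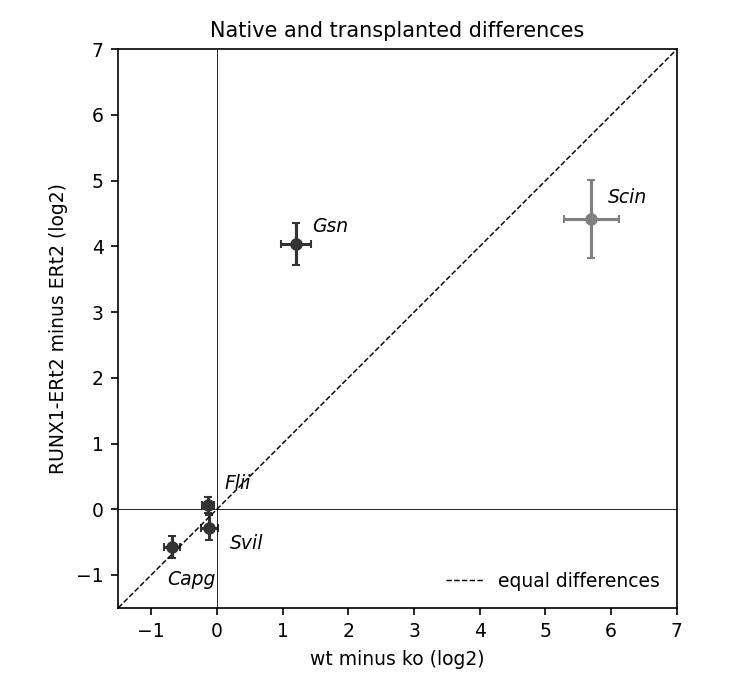
RUNX1-ERt2 minus ERt2 difference (vertical, log2) against the wt minus ko difference (horizontal, log2) for the 5 members that passed the filter, with bars of 1 SE and a dashed line where both are equal. Gsn lies 2.83 above the line, Scin lies below it (−1.29, or −2.36 to −0.22 with 1 array left out), and Capg, Svil and Flii lie near it.

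The start regions of Scin and Gsn are shown because these are the members with higher signal in both wt and RUNX1-ERt2. Each window runs from 250 bases before to 50 after a start site (RefSeq, GRCm38.p6), written 5′ to 3′ on the strand of the gene. RUNX proteins bind TGTGGT and TGCGGT, and capitals mark these letters, which read ACCACA and ACCGCA where they lie on the opposite strand.
Scin, chr12:40134179-40134478, minus strand: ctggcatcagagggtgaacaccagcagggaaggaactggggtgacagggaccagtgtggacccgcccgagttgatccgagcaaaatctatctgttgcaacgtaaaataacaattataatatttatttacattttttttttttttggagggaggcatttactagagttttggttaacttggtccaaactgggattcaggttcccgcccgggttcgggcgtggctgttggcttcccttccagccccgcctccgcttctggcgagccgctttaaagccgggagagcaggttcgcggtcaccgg
Gsn, chr2:35256109-35256408, plus strand: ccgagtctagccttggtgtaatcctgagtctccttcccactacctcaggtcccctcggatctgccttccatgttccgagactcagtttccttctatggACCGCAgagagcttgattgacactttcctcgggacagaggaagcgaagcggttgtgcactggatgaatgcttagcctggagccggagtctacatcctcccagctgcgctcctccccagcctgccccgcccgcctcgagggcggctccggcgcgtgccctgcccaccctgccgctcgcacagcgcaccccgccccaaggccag
Gsn, chr2:35266494-35266793, plus strand: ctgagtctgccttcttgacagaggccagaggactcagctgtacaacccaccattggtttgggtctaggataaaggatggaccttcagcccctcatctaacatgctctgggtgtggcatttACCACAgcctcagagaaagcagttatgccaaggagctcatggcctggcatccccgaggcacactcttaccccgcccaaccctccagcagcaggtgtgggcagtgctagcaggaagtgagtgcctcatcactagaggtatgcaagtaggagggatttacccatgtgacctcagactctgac
Gsn, chr2:35282130-35282429, plus strand: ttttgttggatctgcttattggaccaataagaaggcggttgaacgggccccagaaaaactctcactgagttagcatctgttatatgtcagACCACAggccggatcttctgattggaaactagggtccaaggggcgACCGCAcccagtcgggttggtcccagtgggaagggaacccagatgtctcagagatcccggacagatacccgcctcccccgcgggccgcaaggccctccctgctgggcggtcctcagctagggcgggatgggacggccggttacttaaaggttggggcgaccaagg
No Scin letters match, which says only that neither motif is in this window. Each of the 3 Gsn windows holds a match on the opposite strand. The first has TGCGGT 152 bases before the start site, the second has TGTGGT 130 bases before it, and the third has TGTGGT 160 and TGCGGT 115 bases before it. Such matches are common: TGTGGT occurred in 16.8%, TGCGGT in 6.45% and either in 22.4% of 32851 promoter windows of this length, counting both strands. RefSeq windows were found for 6 of the 7 members, 8 windows in all, of which 4 held a match; the fourth was that of Avil, with TGTGGT 25 bases before the start site. A match is not a site of binding.

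Capg caps barbed ends without severing and is abundant in macrophages. Its probe (chromosome 6, mm9, 72512913 to 72512972) read 4.07 and 4.28 in RUNX1-ERt2, against 4.76 and 4.75 in ERt2. In ko it read 3.97, 3.93, 3.83 and 4.07, against 3.10, 2.94, 3.48 and 3.54 in wt. The groups of neither pair overlapped, and the directions were opposite to those of Scin and Gsn.

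Capg rose in ko relative to wt by 0.69 ± 0.12 (adjusted p = 0.0037), a 1.61-fold difference, with 0.93 on slide 1 and 0.44 on slide 2, where it did not pass alone (adjusted p = 0.32). It fell in RUNX1-ERt2 relative to ERt2 by 0.58 on the log2 scale (SE 0.17, adjusted p = 0.038). The call was lost in 11 of 15 other settings, with adjusted p as high as 0.18, among them the 4 that each left out 1 transplant array (0.069 to 0.18). With the replicate number as a block its adjusted p was 0.080. Capg was also higher in ERt2 than in ko by 0.80 ± 0.14 (adjusted p = 0.0013) and higher in RUNX1-ERt2 than in wt by 0.91 ± 0.14 (adjusted p = 0.00091). RUNX1-ERt2 and ko arrays overlapped, with a difference of 0.22 (95% interval −0.10 to 0.55, adjusted p = 0.22).

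Flii, the flightless homologue, pairs gelsolin-like repeats with leucine-rich repeats and is also known as a nuclear receptor coactivator. Its brighter probe (chromosome 11, mm9, 60527769 to 60527828, minus strand) read 2.97 and 2.96 in RUNX1-ERt2, and 2.97 and 2.84 in ERt2. It read 2.44, 2.59, 2.42 and 2.42 in ko and 2.28, 2.46, 2.42 and 2.17 in wt. On this probe transplanted samples were higher than native ones, and within each pair the groups overlapped. The difference was 0.06 between RUNX1-ERt2 and ERt2 (95% interval −0.21 to 0.33, adjusted p = 0.79) and 0.13 between ko and wt (95% interval −0.06 to 0.33, adjusted p = 0.28). ERt2 exceeded ko by 0.44 ± 0.10 (adjusted p = 0.0061; 0.37 and adjusted p = 0.052 without ERt2 replicate 1), and RUNX1-ERt2 exceeded wt by 0.63 ± 0.10 (adjusted p = 0.0011). The second probe (60532352 to 60532411) gave 0.25 (adjusted p = 0.049) and 0.74 (adjusted p = 0.00027) for these comparisons, but its ERt2 and ko arrays overlapped. Its RUNX1-ERt2 and ERt2 arrays did not overlap, with a difference of 0.32 that did not pass (95% interval 0.08 to 0.56, limma adjusted p = 0.074).

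Svil encodes supervillin, a large protein that links actin and myosin to the plasma membrane. It has 3 probes on chromosome 18, and its brightest (mm9, 5118987 to 5119046) read 1.20 and 1.80 in RUNX1-ERt2, and 1.95 and 1.62 in ERt2. In ko it ranged between 1.45 and 1.66 and in wt between 1.29 and 1.63, so that all groups overlapped. No comparison passed the test on this probe, with 0.11 for ko minus wt (95% interval −0.19 to 0.42), −0.28 for RUNX1-ERt2 minus ERt2 (95% interval −0.71 to 0.15), 0.25 for ERt2 minus ko and 0.09 for RUNX1-ERt2 minus wt. The probe at 5049365 to 5049424 read higher in ERt2 than in ko by 1.25 ± 0.23 (adjusted p = 0.0015), and the third probe gave 0.04 (adjusted p = 0.94), so the Svil probes disagreed there.

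Vil1 encodes villin, the bundling protein of intestinal microvilli, and Avil advillin, its relative in sensory neurons. Vil1 was not well above background on any of the 12 arrays. Avil was well above background only on ko replicate 4, at −4.36, while the other ko arrays read −8.09, −7.08 and −6.12 and the wt arrays −8.17 to −7.42. No test was made for either gene.

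The 4 members other than Scin that passed the filter were counted against all genes. In ko minus wt, 2 of 4 were called, Capg higher (as were 11.5% of all genes) and Gsn lower (as were 13.8%), against 25.3% of all genes in either direction. The members' median difference was 0.12 and that of all genes −0.05. The same 2 were the members whose arrays did not overlap, as in 23.3% of all genes. In RUNX1-ERt2 minus ERt2, 2 of 4 were called, Gsn higher (as were 10.2% of all genes) and Capg lower (as were 8.87%), against 19.1% of all genes in either direction. The median was −0.11 for the members and −0.00016 for all genes, and both called members had arrays that did not overlap, as did 58.9% of all genes. In ERt2 minus ko, 3 of 4 were higher (Gsn, Capg and Flii) where 56.9% of all genes passed in either direction and 30.2% were higher, with medians of 0.58 for the members and 0.06 for all genes. In RUNX1-ERt2 minus wt the 3 higher were Gsn, Capg and Flii, where 46.1% of all genes passed and 21.9% were higher, with medians of 0.77 for the members and 0.0044 for all genes. The same 3 had arrays that did not overlap in each of these comparisons, as did 63% of all genes in ERt2 minus ko and 55.9% in RUNX1-ERt2 minus wt. ERt2 minus ko shares its arrays with the preceding comparisons, as does RUNX1-ERt2 minus wt, and counts of 4 genes are not set against the background share by any test.

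**Figure D3:**
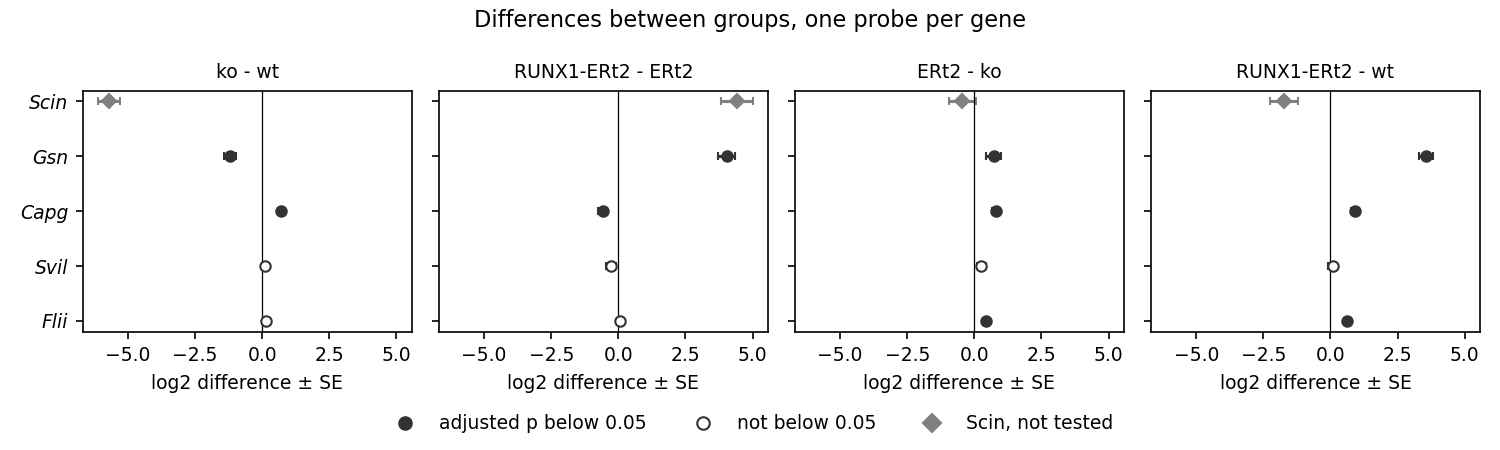
Log2 difference between groups for 1 probe of each member that passed the filter, with bars of 1 SE, filled circles where the adjusted p was below 0.05, open circles where it was not, and diamonds for Scin, which was not tested. Scin and Gsn lie on the same side of 0 in the ko minus wt panel (−5.70 and −1.20) and in the RUNX1-ERt2 minus ERt2 panel (4.41 and 4.04), and Capg lies on the other side in both (0.69 and −0.58).

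Marker lists of other cell types were examined in the same groups. Summed signal of a list is given in multiples of the 75th percentile of the array, so that its brightest genes weigh most, with the list's median log2 difference and its calls beside it. Of all genes, 10.2% were called higher and 8.87% lower in RUNX1-ERt2 minus ERt2. In ko minus wt, the shares were 11.5% higher and 13.8% lower. The marker counts were not tested against these shares. The 8 monocyte and macrophage markers summed to 7.56 to 12.7 in RUNX1-ERt2 against 82.7 to 100.5 in ERt2, and 6 of 8 fell (median −2.24). The 8 late neutrophil markers summed to 116.04 to 131 in RUNX1-ERt2 against 510.1 to 613 in ERt2, with a median of −2.02, but no single one passed the test (lowest adjusted p = 0.057, for Camp). All 8 of both lists were above background on every array of both groups. The 9 GMP and promyelocyte markers summed to 436 to 628 in RUNX1-ERt2 against 885 to 1013 in ERt2, and 4 fell (median −0.61). The 9 basophil and mast cell markers summed to 59.4 to 76.1 in RUNX1-ERt2 against 98.7 to 109 in ERt2, and 8 to 9 were above background in both groups. That list went both ways, with a median of 0.04: the bright Hdc (−2.44) and Mcpt8 (−0.90) fell, while Prss34 (3.29) and Ms4a2 (2.71) rose. The 5 T and NK cell markers summed to 13.8 to 15.3 in RUNX1-ERt2 against 35.9 to 48.5 in ERt2, a sum set by Nkg7, the 1 marker called (−1.57). The median of that list had the other sign (0.67), with values of 1.89 for Klrb1c, 1.00 for Cd3g and 0.67 for Cd3d that did not pass. The 5 B cell markers summed to 5.14 to 5.61 in RUNX1-ERt2 against 8.47 to 9.50 in ERt2, and of the 4 that passed the filter 1 fell, Cd79b (−0.75). Of this list, Ms4a1 and Pax5 were above background on no array of either group. The sums of the erythroid and megakaryocyte lists overlapped between RUNX1-ERt2 and ERt2.

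The 8 megakaryocyte and platelet markers summed to 38.5 to 58.6 in ko against 8.74 to 14.4 in wt, with 8 above background in ko and 7 to 8 in wt, and 4 of 8 rose (median 1.67). The GMP and promyelocyte list summed to 340.0 to 499 in ko against 578 to 824 in wt, where 5 of 9 fell and 1 rose (median −0.74). The basophil and mast cell list summed to 65.9 to 95.5 in ko against 41.5 to 47.9 in wt, but it went both ways, with 4 called lower and 3 called higher. Cpa3 (1.92), the brightest in ko, rose with Il1rl1 (1.77) and Cd200r3 (4.16), while Prss34, Mcpt8 (−3.34), Ms4a2 (−0.84) and Fcer1a fell. Fcer1a was above background on no ko array and passed the filter only through other groups, yet the count of 4 includes it. The T and NK cell list summed to 7.95 to 12.3 in ko against 18.6 to 33.3 in wt, again set by Nkg7 (−1.38), the 1 marker called, with a list median of 0.11. The sums of the monocyte, late neutrophil, erythroid and B cell lists overlapped between ko and wt, although 4 of 8 monocyte and macrophage markers fell (median −0.62). Of the 8 erythroid markers, 3 rose and 1 fell (median −0.01). Of the 4 B cell markers that passed the filter 1 fell, Ms4a1, which was above background on no ko array. The part of these cell types in the Gsn and Capg results was not tested.

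Over the 12 arrays, the genes most like Scin were ranked by Pearson r among 14258 named genes, as a description that rests on 4 groups with 4 slides. Il31ra, a subunit of the interleukin 31 receptor, had r = 0.97, as did Npdc1. Cd72, a surface receptor best known from B cells, followed with r = 0.96, Uchl1, a ubiquitin hydrolase, with 0.96 and 1500009L16Rik with 0.96. Cd72 averaged 0.46 in RUNX1-ERt2 and −2.30 in ERt2, and −2.82 in ko and 0.86 in wt, a pattern of the same shape as that of Scin. The most opposite were Itga9, an integrin subunit (r = −0.98), Tff1, a trefoil peptide (r = −0.97), and Myct1 (r = −0.97). Several of these genes were dim where they were low, so their r rests partly on dim signal. In ko and ERt2, Npdc1 averaged −7.07 and −7.23, Uchl1 −6.41 and −7.29, and 1500009L16Rik −8.07 and −7.17. Tff1 averaged −7.40 in wt. Such levels lie near those of Vil1, which was well above background on no array. Within the family Gsn had r = 0.45 with Scin, Capg −0.68, Svil −0.35 and Flii −0.34.

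The family acts within a wider set of actin regulators, taken as 99 genes in 7 lists, of which 89 passed the filter. In ko minus wt, where 25.3% of all genes passed (11.5% higher and 13.8% lower), 12 were higher and 8 lower (median −0.06). In RUNX1-ERt2 minus ERt2, where 19.1% of all genes passed (10.2% higher and 8.87% lower), 6 were higher and 17 lower (median −0.06). The counts of the single lists below stand against the same shares and were not tested against them. None of the 3 actin genes measured passed the test in either comparison. Of 15 genes of the cofilin pathway, which severs and recycles filaments, 2 rose and 0 fell in ko, and 1 rose and 2 fell with RUNX1-ERt2. Ssh3, a cofilin phosphatase, rose in ko by 0.68 ± 0.11, and Pdxp, another one, fell with RUNX1-ERt2 by 0.85 on the log2 scale (SE 0.16), as did Gmfg, which takes branches apart, by 0.74 (SE 0.12).

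Among villin-like and headpiece proteins, Vill rose in ko relative to wt by 1.26 ± 0.12 (adjusted p = 0.00024) and fell in RUNX1-ERt2 relative to ERt2 by 1.14 on the log2 scale (SE 0.18, adjusted p = 0.0021). Ablim1, an actin-binding LIM protein, fell in both, by 1.20 in ko (adjusted p = 0.0044) and by 2.11 in RUNX1-ERt2 (adjusted p = 0.0014), where normexp correction gave −1.04. Of 13 formins and Ena/VASP proteins, which lengthen filaments, 3 rose and 0 fell in ko, while 1 rose and 6 fell in RUNX1-ERt2. Fhdc1, a formin, was 41.6-fold higher in ko than in wt (5.38 ± 0.38, adjusted p = 4.2e-05; 3.98 with normexp correction), and Enah rose by 1.74 ± 0.37 (adjusted p = 0.0095), with 2 of 4 wt arrays well above background, but was −0.10 (adjusted p = 0.87) with normexp correction. With RUNX1-ERt2, Evl (−2.34 ± 0.40) and Inf2 (−1.19 ± 0.28) were lower than with ERt2. The Inf2 call was lost without either ERt2 array, with adjusted p up to 0.080.

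Of 16 genes for capping and monomer binding, 4 rose and 3 fell in ko, and 3 rose and 2 fell with RUNX1-ERt2. Tmod1, which caps pointed ends and is known from red cells, was at least 6.63-fold higher in RUNX1-ERt2 than in ERt2 (means −2.46 in RUNX1-ERt2 and −6.83 in ERt2), since no ERt2 array was well above background. The filter keeps a gene that is bright in a single group, so no p is given for Tmod1. The counts of genes that rose with RUNX1-ERt2, in this list and over all actin lists, nevertheless include it. So do the counts of genes that rose in ko, although no wt array was well above background for Tmod1 (ko minus wt 2.07, with overlapping arrays). With normexp correction the fitted RUNX1-ERt2 minus ERt2 difference of Tmod1 was 1.54 and did not pass. The 8 erythroid markers on the array summed to 186 to 248 in RUNX1-ERt2 and 114 to 200.3 in ERt2, all 8 above background on every array, and their part was not tested. Twf2, a twinfilin, fell by 1.29 on the log2 scale (SE 0.17). In ko, Carmil2, which removes capping protein, rose by 0.64 ± 0.18, a call lost without ko replicate 1, 2 or 4 or wt replicate 1, 2 or 3 (adjusted p up to 0.086), and Tmsb4x, which holds actin monomers, fell by 0.52 (SE 0.07).

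Of 25 genes of the Arp2/3 complex, which branches filaments, and its activators, 2 rose and 1 fell in ko, and 1 rose and 3 fell with RUNX1-ERt2. Cttn, encoding cortactin, was 15.0-fold higher in RUNX1-ERt2 than in ERt2 (3.90 ± 0.73, adjusted p = 0.0058; 3.09 with normexp correction and 3.09 to 4.72 with 1 array left out), and Arpc4 fell by 0.72 (SE 0.17), a call lost without replicate 2 of either group (adjusted p up to 0.099). Of 12 bundlers and crosslinkers, 0 rose and 3 fell in ko, led by Marcks (−1.61 ± 0.16) and Flna (−0.54 ± 0.10), and 0 rose and 2 fell with RUNX1-ERt2, among them Marcks (−0.95 ± 0.23). The Marcks call with RUNX1-ERt2 was lost without RUNX1-ERt2 replicate 1 or either ERt2 array (adjusted p up to 0.12), and that in ko held without any 1 array.

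Several of these calls depended on the processing or the fit. With the replicate number as a block, which pairs ko with wt by number only, 7 actin regulators were higher and 6 lower in ko. The Carmil2 call was then lost (limma adjusted p = 0.074). Of the ko calls named here, those of Fhdc1 and Marcks passed on slide 2 alone and the others did not. With normexp correction the ko calls of Flna (−0.45, adjusted p = 0.064) and Tmsb4x (−0.42, adjusted p = 0.051) were lost, as was that of Arpc4 in RUNX1-ERt2 minus ERt2 (adjusted p = 0.057). With only the 4 transplant arrays in the fit, 2 actin regulators were higher and 7 lower in RUNX1-ERt2, and the calls of Cttn (adjusted p = 0.063), Vill (0.056), Pdxp (0.079), Marcks (0.081), Arpc4 (0.084) and Inf2 (0.15) were lost.

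**Figure D4:**
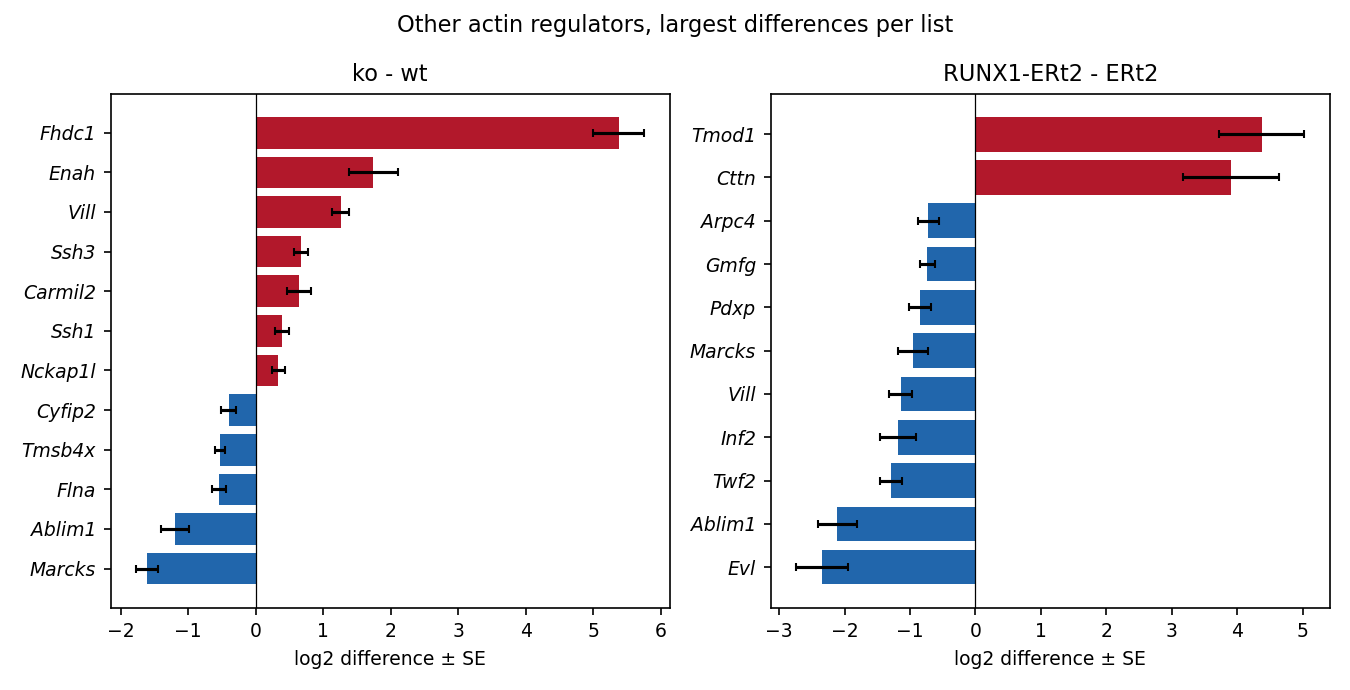
Log2 difference ± SE of the actin regulators outside the gelsolin family named in the text and others chosen by the same rule, up to 2 per list with the largest difference past an adjusted p of 0.05 and with no overlap between arrays, for ko minus wt (left) and RUNX1-ERt2 minus ERt2 (right). Bars start at 0, with red for higher and blue for lower. Fhdc1 (5.38) leads the left panel. Tmod1 (4.37, a fitted value and not a bound, with no ERt2 array well above background) and Cttn (3.90) lead the right.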

How the data were processed

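RNA was labelled with Cy3 and hybridised to Agilent arrays, per the labels' protocols. The deposited spot intensity values are scanner output of Agilent Feature Extraction 10.7.3.1 after background subtraction and detrending, as given per the file headers, while the submitters' processing notes name version 9.1. The authors' series matrix holds a processed signal relative to the array, with column medians of 0.91 to 0.94, and its divisor was not determined. Compared with the deposited signal, its wt and ko columns each follow another replicate of their group (1 with 3, 2 with 4). The matrix served as an alternative only.

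Control spots and 129 to 207 outlier spots per array were left out, no spot was saturated, and log2 processed signal minus the 75th percentile of each array was used; 53.5% to 63.1% of probes were well above background. The number of arrays limits the precision. Of 39429 probes, 27234 were named by accession (RefSeq, GRCm38.p6), 3576 by symbol, 565 by synonym and 8054 kept the file's name. Genes were represented by their brightest probe that passed the filter, well above background in all arrays of some group. Probe coordinates are those of the files (mm9).

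limma 3.58.1 in R 4.3.3 fitted group means and a slide term, which acts on wt and ko only, over 12 arrays (7 residual and 2.11 prior degrees of freedom), tested on simulated data; Benjamini-Hochberg adjustment ran over the 17905 genes tested, at a threshold of 0.05. Where no array of a group was well above background, a fold is a bound against the higher of the probe's own signal and the lowest signal well above background. For second probes the fit ran over all probes. Same-numbered ko and wt arrays, which lie on the same slide, deviated together from their group means (correlations 0.37, 0.35, 0.18 and 0.67). Slide was not removed from these deviations. The ko replicates 2, 3 and 4 correlated best with the wt replicate of the same number, and ko replicate 1 correlated best with wt replicate 2. These matches do not settle whether the numbers pair the samples, and the replicate block was an alternative only. Other alternatives were normexp correction, quantile or median scaling, the series matrix, filters on dim probes, no slide term, single slides, only the arrays compared, and leaving out each array. Named were all members, up to 2 genes per actin list and comparison with the largest difference among called genes without overlap, of which those of ko minus wt and RUNX1-ERt2 minus ERt2 are described, and the genes most and least like Scin (5 and 3). Results on 2 further genes of the lists are not reported here. The members and lists were chosen with earlier results of these data known.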

Additional observations from a re-analysis of the deposited data

Results flagged for a closer look

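On the brighter Flii probe, ko replicate 2 read 2.59 and stood apart from the other 3 ko arrays, which read 2.42 to 2.44. It was the single array to do so among 22 groups of 4 arrays examined, and chance alone marks about 1 group in 20. The difference of Gsn between RUNX1-ERt2 and ERt2 exceeded that between wt and ko by 2.83 ± 0.39 (limma adjusted p = 0.0015), a comparison of the native and transplanted settings chosen after the values were seen.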

How the results depend on the processing

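No member reversed a called direction in the alternatives run. In RUNX1-ERt2 minus ERt2 the members called were 1 in place of 2 under normexp correction, quantile normalization, no filter, no slide term, the replicate block, only the arrays compared and the crossed pairing (chosen after seeing the data, since the same-numbered transplant arrays correlated at −0.19); leaving out each array gave 1 each time. The replicate block changed no other call of a member; of the actin regulators it called 7 higher and 6 lower in ko minus wt, in place of 12 and 8. In ERt2 minus ko, leaving out arrays gave 1 to 3 in place of 3, and the Gsn call was lost in 8 of 16 alternatives. In ko minus wt, slide 2 alone called 0 members and 381 genes. Gsn and Capg in ko minus wt, and Gsn in RUNX1-ERt2 minus wt and minus ERt2, held in the remaining alternatives, as did the Gsn excess in 21 of 21 (2.33 to 3.33). Over all genes, normexp gave fewer calls: 1975 in place of 4537 for ko minus wt, 1391 in place of 3418 for RUNX1-ERt2 minus ERt2, 6415 in place of 10188 for ERt2 minus ko, 4776 in place of 8250 for RUNX1-ERt2 minus wt and 1250 in place of 3254 for the excess. Only the arrays compared gave 1657 for RUNX1-ERt2 minus ERt2, and no filter 15476 for ERt2 minus ko. Leaving out arrays gave 2858 to 4835 for ko minus wt, 2179 to 2428 for RUNX1-ERt2 minus ERt2 and 1881 to 3466 for the excess. Of the 89 actin regulators, normexp called 6 higher and 2 lower in ko minus wt, and 2 higher and 12 lower in RUNX1-ERt2 minus ERt2, where only the arrays compared called 2 higher and 7 lower. Array-median scaling moved the all-gene median to 0.25 in ERt2 minus ko and to 0.14 in RUNX1-ERt2 minus wt. It also raised the higher share of calls to 57.3% from 45.5% in ko minus wt, to 64.2% from 53.1% in ERt2 minus ko and to 58.4% from 47.6% in RUNX1-ERt2 minus wt. In RUNX1-ERt2 minus ERt2 it lowered that share to 47.9% from 53.5%. Normexp moved the median to −0.15 in ko minus wt and to −0.16 for the excess; the cause was not tested. Dim signal limits Scin in ERt2, and Vil1 and Avil throughout.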
